A study of Malus domestica with 6 samples.

Results

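In the RNAseq of apple seeds, 25 of 63517 gene models were almost without reads in central fruit seeds and were expressed in lateral fruit seeds. They were taken as all gene models with every one of the 3 central values at or below 0.2 RPKM and every one of the 3 lateral values at or above 1 RPKM. RPKM is the number of reads on a gene model per kilobase of its length and per 1000000 mapped reads, so levels can be compared between gene models of different length. The genes were chosen by these same 6 RPKM values, so their difference between the types of seed is described here and is not tested.

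The study compared seeds of the central fruit of the cluster, which is the largest, with seeds of mid-sized lateral fruits (L2), both collected at 20 days after petal fall (DAPF) from untreated adult Golden Delicious trees in an orchard. There were 3 libraries of each type of seed, and seeds of several fruitlets were pooled for each, so a library is a pool and not a single fruit or tree. Position in the cluster, size of the fruit and, as lateral fruits are younger, stage of development differ together between the groups and cannot be told apart.

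In apple, lateral fruits are shed more readily than the central fruit during the early drop of fruitlets, and hormones made in the seed, auxin above all, take part in holding the fruit. A young seed is made up of the seed coat, the endosperm and the embryo, and RNA of whole seeds mixes them. In such bulk samples fewer cells of a type and less RNA per cell cannot be told apart.

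The gene models carry identifiers of the first apple genome assembly, and the gene table used here pairs none of the 25 with a name. None of the 12 gene models that the main text of the study names by identifier is among them. Its supplementary lists were not used here, and no function is given for any of the 25. Of those 12, the one nearest to the central limit was MDP0000735747, the putative ortholog of the gibberellin 2-oxidase gene *GA2OX6*, an enzyme that inactivates gibberellins. In central replicates 1 to 3 its values were 0.716, 0.949 and 0.808 RPKM, which is above the limit of 0.2 RPKM in every library. Sequences and positions of the 25 were not used here, and the labelled tissue could not be checked against marker genes for the same reason.

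The 6 libraries held between 14238640 and 37767724 reads on gene models, as recovered from the values, with the lowest depth in lateral replicate 1 and the highest in lateral replicate 2. By their run names, the 3 central libraries and lateral replicate 3 were sequenced in lane 7, and lateral replicates 1 and 2 in lane 8. These names do not give the flow cell. Every lateral value of the 25 genes in lane 7 was at or above 1.02 RPKM, and every central value in the same lane was at or below 0.185 RPKM. The limits themselves require this separation, so it says nothing about the part of the lane, and a comparison within lane 7 rests on lateral replicate 3 alone.

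Such a pattern was rare. In all 3 central libraries 19532 gene models were at or below 0.2 RPKM, and 0.128% of them reached 1 RPKM in every lateral library. Looked at from the other side, 29439 gene models reached 1 RPKM in every lateral library, and 0.0849% of them stayed at or below 0.2 RPKM in every central one. The mirror image, with every lateral value at or below 0.2 RPKM and every central value at or above 1 RPKM, was met by 1 gene model, MDP0000697565. Its central replicates 1 to 3 had 1.39, 1.43 and 1.80 RPKM, from 11, 16 and 15 reads, and its lateral replicates 1 to 3 had 0, 2 and 1 reads. The 2 limits in RPKM were applied alike in both directions, and genes of the first kind outnumbered those of the second by 25 to 1. Over the whole table more gene models were also called higher than lower in lateral fruit seeds, 1262 against 171 in the comparison given below.

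**Figure D1:**
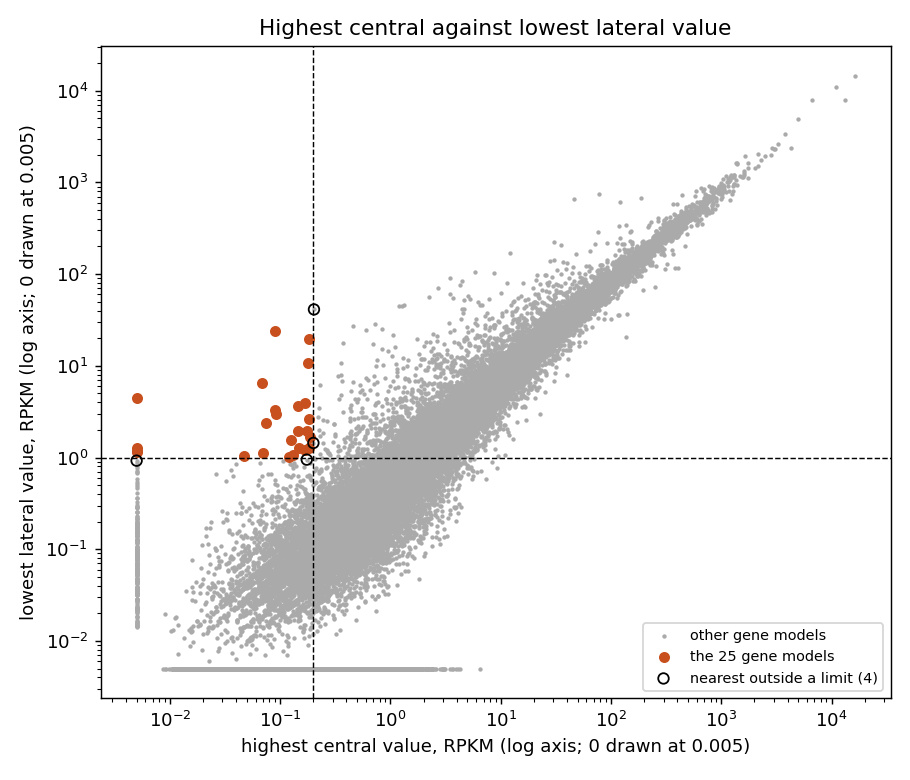
Highest of the 3 central values (horizontal axis, RPKM) against the lowest of the 3 lateral values (vertical axis, RPKM) of each gene model, both on log axes with 0 drawn at 0.005; dashed lines mark the limits of 0.2 and 1 RPKM. The 25 gene models (orange) lie in the upper left corner, where the limits place them, beside the other gene models (grey), and open circles mark the 4 gene models nearest outside a limit.

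"Silent" holds in the strict sense for 4 of the 25 genes, which had no read in any central library. The other 21 had between 1 and 21 reads over the 3 central libraries together, and 31 of the 75 central values were 0. All 25 together were covered in central replicates 1 to 3 by 21, 55 and 34 reads, whereas in lateral replicates 1 to 3 the numbers were 2483, 3261 and 2822. A gene of the median length of 714 bases stays within 0.2 RPKM with up to 3.09 reads in central replicate 1 and 4.37 reads in central replicate 2, so the limit allows a few reads and not none. The short gene MDP0000711891, of 195 bases, is an exception, since a single read would have carried it over the limit in central replicates 1 and 3.

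The genes were not strongly expressed where they were active. Their lateral means lay between 1.24 and 39.8 RPKM (median 2.53 RPKM), while the other gene models with every lateral value at or above 1 RPKM had a median of 9.70 RPKM. A lateral mean of at least 10 RPKM was reached by 3 genes, of at least 5 RPKM by 9, and 9 stayed below 2 RPKM. Their median length of 714 bases was shorter than the 1086 bases of those other gene models. A gene of that length needs 10.2 reads for 1 RPKM in lateral replicate 1, 27.1 reads in lateral replicate 2 and 17.4 reads in lateral replicate 3, so the weakest of the 25 rest on few reads.

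MDP0000164489, of 486 bases, led the 25 genes in lateral fruit seeds. Its RPKM was 55.4, 24.0 and 39.9 in lateral replicates 1 to 3, from 386, 444 and 472 reads. In central replicates 1 to 3 it had 0, 0 and 1 reads. Over the reads of each type of seed together, its rate per mapped read was 1275 times as high in lateral as in central fruit seeds, with a 95% counting interval from 228 to 50379. The interval is this wide, above all upward, because the central rate rests on a single read. Like all such intervals here it covers counting error only and not the spread between pools.

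MDP0000152232, of 960 bases, had the most reads of the 25 genes in lateral fruit seeds, 1943 in all. Its lateral replicates 1 to 3 had 40.0, 19.7 and 28.8 RPKM and its central replicates 1 to 3 had 0.144, 0.170 and 0.183 RPKM. The central values came from 3, 5 and 4 reads and lay close together, at 0.166 ± 0.0196 RPKM (SD, n = 3), so every central pool held a few reads of this gene. The limit of 0.2 RPKM caps these values, and so few reads cannot show how even its level was. The ratio of the rates was 158 (95% counting interval 90.5 to 307).

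MDP0000715270, of 1086 bases, was the third above 10 RPKM. Its lateral replicates 1 to 3 had 19.7, 10.7 and 14.5 RPKM from 306, 441 and 384 reads, and its central replicates had 1, 6 and 3 reads. The ratio of the rates was 111 (95% counting interval 59.98 to 232). These 3 genes supplied 53.1%, 51.6% and 57.1% of the summed RPKM of the 25 in lateral replicates 1 to 3, so the summed level is largely theirs.

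**Figure D2:**
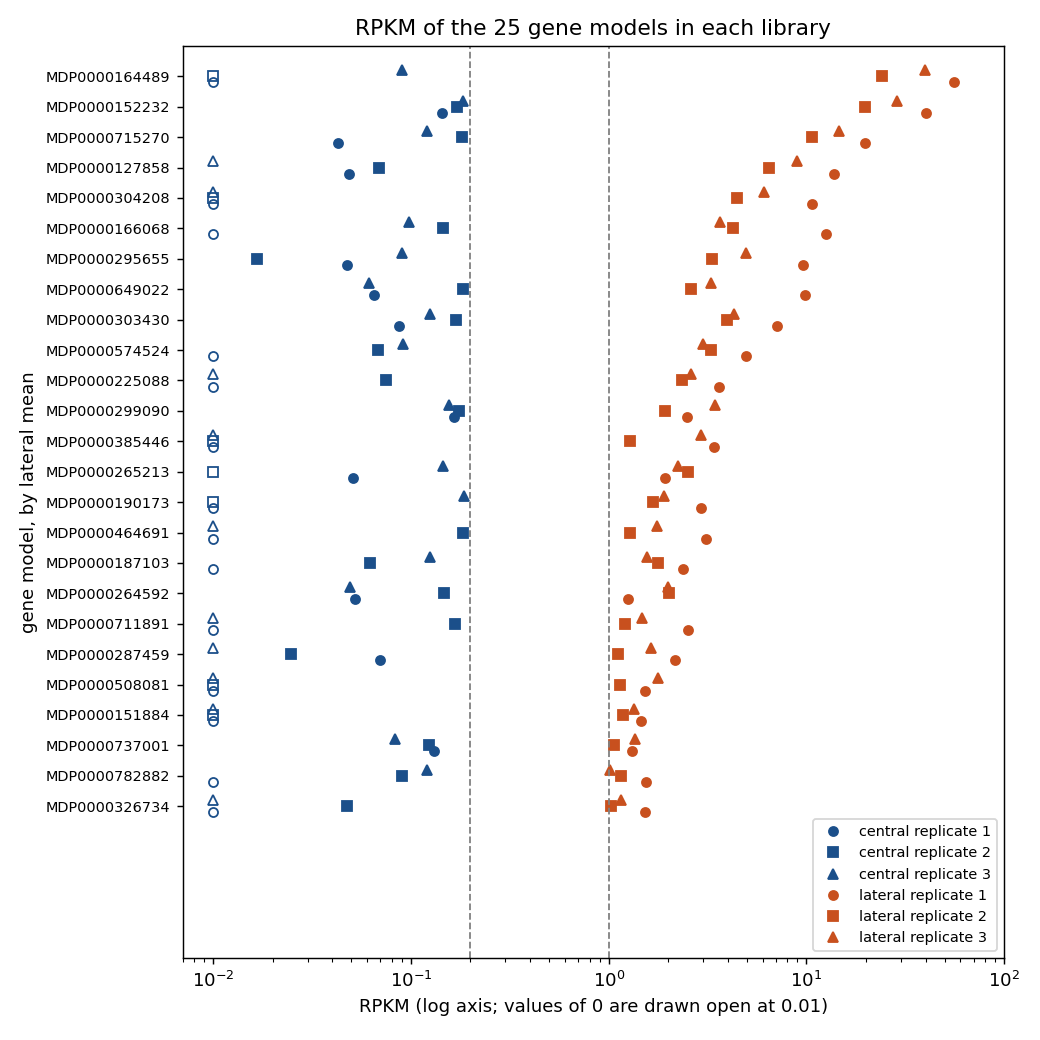
RPKM of each of the 25 gene models (rows, ordered by lateral mean) in each of the 6 libraries on a log axis, central libraries in blue and lateral libraries in orange, with circles, squares and triangles for replicates 1, 2 and 3; values of 0 are drawn open at 0.01 and dashed lines mark 0.2 and 1 RPKM. The circles of lateral replicate 1 stand furthest to the right in 20 of the 25 rows.

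Below these came 6 genes with a lateral mean between 5 and 10 RPKM. MDP0000127858, of 948 bases, had 13.8, 6.47 and 8.97 RPKM in lateral replicates 1 to 3 against 1, 2 and 0 central reads. MDP0000304208, of 282 bases, had 10.6, 4.48 and 6.12 RPKM and was the strongest of the genes without a central read. Its lateral values came from 43, 48 and 42 reads. Set against 3 reads over the 3 central libraries together, in place of none, its rate was 43.4 times as high in lateral fruit seeds. Such a value leaves out the counting error of the lateral reads and is not a lower bound.

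MDP0000166068, of 450 bases, had 12.6, 4.27 and 3.65 RPKM in lateral replicates 1 to 3, and MDP0000649022, of 714 bases, had 9.87, 2.62 and 3.28 RPKM. In both the first lateral pool stood far above the other two, which lay close to each other. Their lateral means of 6.83 and 5.26 RPKM rested on it and became 3.96 and 2.95 RPKM without lateral replicate 1. Of the 25 genes these were the 2 whose lateral mean moved by over 1.5 times without that library.

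MDP0000295655, of 1953 bases, had 9.65, 3.31 and 4.92 RPKM in lateral replicates 1 to 3, from 270, 246 and 234 reads. The shallowest of these libraries thus gave more reads on it than the deepest, against 2, 1 and 4 reads in the central replicates. MDP0000303430, the longest with 2118 bases, had 7.09, 3.98 and 4.30 RPKM and the lowest ratio of highest to lowest lateral value, 1.78, of the 9 stronger genes. It also had the most central reads, 4, 11 and 6 in replicates 1 to 3, and a ratio of 35.3 (95% counting interval 22.9 to 57.3). For a gene of this length the limit of 0.2 RPKM is far from an absence of reads.

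A middle group of 7 genes had lateral means from 2.05 to 3.74 RPKM. MDP0000574524 had 4.94, 3.29 and 2.99 RPKM in lateral replicates 1 to 3, and MDP0000225088 had 3.61, 2.36 and 2.60 RPKM, each with 2 central reads in all. MDP0000299090 had 2.49, 1.92 and 3.44 RPKM in lateral replicates 1 to 3, with the highest value in replicate 3. The counting interval of the ratio of replicate 1 to replicate 3 included 1, from 0.406 to 1.24. That of replicate 3 to replicate 2 lay above 1, from 1.15 to 2.79. The central values of this gene, 0.165, 0.175 and 0.156 RPKM, came from 2, 3 and 2 reads in replicates 1 to 3. They were the most even of the 21 genes with central reads, but the limit of 0.2 RPKM caps them. So few reads cannot show how even its level was.

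MDP0000385446 had no central read and 3.39, 1.28 and 2.92 RPKM in lateral replicates 1 to 3. With 15, 15 and 22 lateral reads its rate was 17.0 times that of 3 reads over the central libraries together. MDP0000265213 had 1.93, 2.51 and 2.23 RPKM, and the 95% counting interval of the ratio included 1 for each pair of lateral pools. MDP0000190173, of 237 bases, had 2.95, 1.67 and 1.91 RPKM, and its single central read gave 0.185 RPKM in central replicate 3, the highest central value of all 25 genes. MDP0000464691 had 3.12, 1.27 and 1.76 RPKM in lateral replicates 1 to 3, and its 3 central reads all fell in replicate 2.

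The remaining 9 genes had lateral means below 2 RPKM. MDP0000187103 had 2.39, 1.77 and 1.56 RPKM in lateral replicates 1 to 3, and MDP0000287459 had 2.16, 1.11 and 1.65 RPKM. MDP0000264592 had 1.26, 2.02 and 1.99 RPKM, its lowest value being that of replicate 1. The 95% counting interval of the ratio included 1 for each pair of lateral pools. MDP0000711891 had 2.51, 1.21 and 1.47 RPKM from 7, 9 and 7 reads, 23 in all. At this depth its ratio of 22.5 has a 95% counting interval from 3.66 to 927.

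Of the genes without a central read, 2 belong to this weakest group. MDP0000508081 had 1.52, 1.14 and 1.79 RPKM in lateral replicates 1 to 3, and MDP0000151884 had 1.45, 1.17 and 1.34 RPKM. Their lateral rates were 9.79 and 10.8 times that of 3 reads over the central libraries together. For MDP0000508081 the read numbers are uncertain, with 6, 12 and 12 reads if its length is 276 bases. At 92 bases 2, 4 and 4 reads would give the same values, and its ratio to 3 central reads would then be 3.26.

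MDP0000737001 had 1.31, 1.07 and 1.35 RPKM in lateral and 0.131, 0.123 and 0.0826 RPKM in central replicates 1 to 3. Its ratio of 10.7 (95% counting interval 5.39 to 24.0) was the lowest of the 21 genes with central reads. MDP0000782882 and MDP0000326734 stood nearest to the lateral limit, with lowest lateral values of 1.02 and 1.03 RPKM. The first had 1.54, 1.16 and 1.02 RPKM and the second 1.52, 1.03 and 1.16 RPKM in lateral replicates 1 to 3, each against 2 central reads. Over the 21 genes with central reads the ratios lay between 10.7 and 1275 (median 39.2). With the other 4 genes set against 3 central reads the median was 37.4.

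The limits cut through a continuous range of values. Just inside the central limit were MDP0000190173, with 0.185 RPKM, and MDP0000649022, with 0.183 RPKM as their highest central values. Just outside were MDP0000346700, with a highest central value of 0.2004 RPKM, and MDP0000759666, with 0.203 RPKM. The latter reached 147, 41.2 and 72.9 RPKM in the lateral replicates, more than any of the 25 genes, and missed the set through 3 reads in central replicate 2. Just outside the lateral limit were MDP0000134442, with a lowest lateral value of 0.949 RPKM, and MDP0000264694, with 0.925 RPKM in lateral replicate 3 and no central read. A further 77 gene models met the lateral limit with a highest central value between 0.2 and 0.5 RPKM, and 45 met the central limit with a lowest lateral value between 0.5 and 1 RPKM.

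Summed over the 25 genes, the central replicates 1 to 3 reached 0.903, 2.10 and 1.72 RPKM, whereas the lateral replicates 1 to 3 reached 217, 106 and 146 RPKM. The means were 1.57 ± 0.610 RPKM and 156 ± 56.3 RPKM (SD, n = 3 each). Even in lateral fruit seeds the genes are a small part of the transcriptome, between 0.0103% and 0.0219% of the summed RPKM of a library. The limits themselves keep the sums of the 2 groups apart, so this gap is described and not tested. The lateral pools were uneven, with the highest sum in replicate 1 and the lowest in replicate 2.

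**Figure D3:**
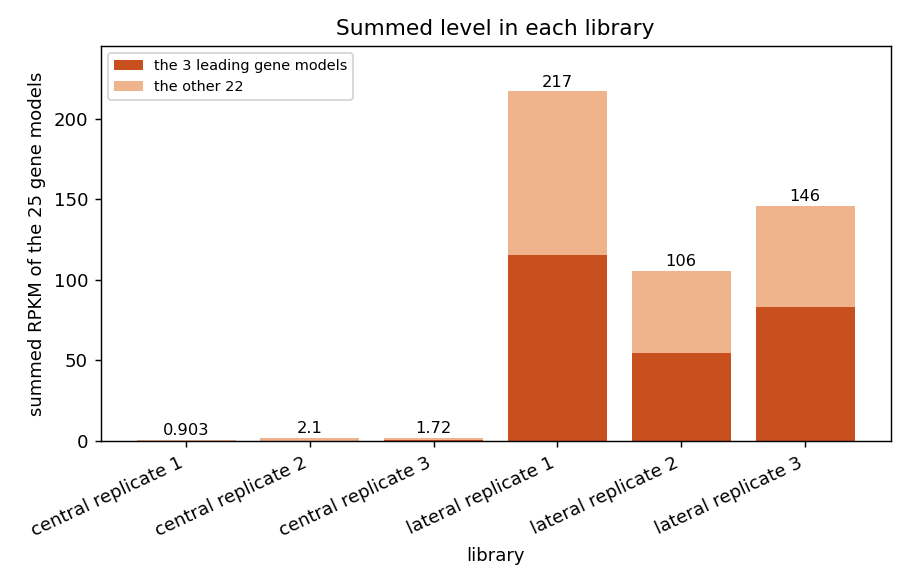
Summed RPKM of the 25 gene models in each library (bars from 0, 1 library each), with the 3 leading gene models in dark and the other 22 in light orange. The central libraries lie between 0.903 and 2.10 RPKM and the lateral libraries between 106 and 217 RPKM, with lateral replicate 1 the highest.

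On the log2(RPKM + 0.5) scale the lateral minus central differences of the 25 genes spanned 1.51 to 6.17 around a median of 2.27, while the median over all 37230 gene models tested was -0.02. This scale understates the change of low genes. In limma with Benjamini-Hochberg adjustment over all gene models tested, 3.39% were called higher in lateral fruit seeds (adjusted p no greater than 0.05, change no smaller than 1.5-fold). All 25 genes were among these 1262 calls, a count that the choice of the genes on the same contrast fixes in large part and from which nothing is read. With the lane as a covariate, where the comparison rests on lateral replicate 3, 1.05% were called higher, and of the 25 genes 15 were. Their median difference in that fit was 2.56. Without the filter on low values the share was 0.378%, with 18 of the 25 genes among the calls.

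The spread among the lateral pools was not part of the choice except through the lower limit of 1 RPKM. The median ratio of the highest to the lowest lateral value was 1.79 in the 25 genes. It was 1.24 in the 24475 other gene models with every lateral value at or above 1 RPKM and a lateral mean within the range of the 25. A ratio of at least 2 was found in 10 of the 25 genes (40.0%) and in 6.20% of those others. Between these lay the 1155 other gene models that limma called higher in lateral fruit seeds, with every lateral value at or above 1 RPKM. Their median ratio was 1.41, with 12.8% at a ratio of at least 2. A limma call depends on the spread within groups, so these ratios were partly set by the choice of the 1155. Their lateral means were also higher, with a median of 14.6 RPKM against 2.53 RPKM in the 25 genes. The lateral reads per gene differed between these sets, with medians of 133, 619 and 863 in the 25 genes, the others of the same range and those called higher, and their part in the spread was not tested. Among the 9 genes with a lateral mean of at least 5 RPKM, a ratio of at least 2 was found in 7. The largest ratios, 3.77 in MDP0000649022 and 3.44 in MDP0000166068, came from 229 and 194 lateral reads.

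The spread had a direction. In 20 of the 25 genes (80.0%) the highest lateral value was that of replicate 1, and in 19 the lowest was that of replicate 2. Among the other gene models of the same range of levels, replicate 1 was highest in 39.2% and replicate 2 lowest in 40.6%. The order replicate 1, replicate 3, replicate 2 from high to low was found in 16 of the 25 genes (64.0%) and in 23.5% of those others. Among the 1155 called higher, replicate 1 was highest in 68.6% and the full order was found in 51.3%. The 25 genes were in this respect closer to the other genes higher in lateral fruit seeds than to gene models at large. Both sets were chosen on the same contrast in these libraries, so nothing is read from this likeness, which was not tested.

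In RPKM, replicate 1 stood at a median of 1.78 times replicate 2 in the 25 genes, at 1.03 times in the other gene models of the same range and at 1.29 times in the 1155 called higher. Of the 25 genes, 13 had a 95% counting interval of this ratio above 1, 12 had an interval that included 1, and none had an interval below 1. All 9 genes with a lateral mean of at least 5 RPKM were among the 13, with ratios from 1.78 to 3.77. Their ratios of replicate 1 to replicate 3 ran from 1.35 to 3.44, again with an interval above 1 in all 9. The ratios of replicate 3 to replicate 2 ran from 0.855 to 1.66 in the same 9 genes, with an interval above 1 in 7 of all 25. The widest gap was that of MDP0000649022, with 3.77 times as much in replicate 1 as in replicate 2 (95% counting interval 2.76 to 5.19).

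**Figure D4:**
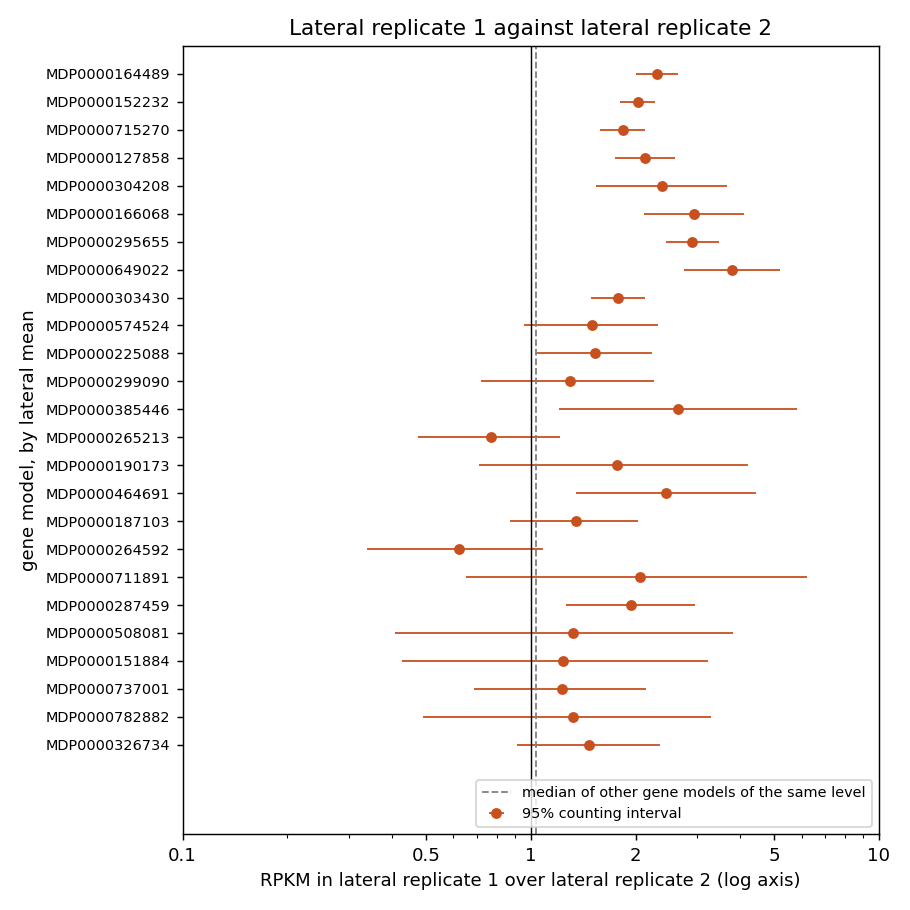
Ratio of the RPKM in lateral replicate 1 to that in lateral replicate 2 for each of the 25 gene models (log axis, points with 95% counting intervals), ordered by lateral mean; the solid line marks 1 and the dashed line the median of 1.03 in other gene models of the same range of levels. The 9 genes of the upper rows lie between 1.78 and 3.77, and the 2 genes to the left of the line, MDP0000265213 and MDP0000264592, have intervals that include 1.

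Depth ran in the opposite order, the deepest library being lateral replicate 2 and the shallowest lateral replicate 1, a ratio of mapped reads of 2.65. Its part in the order of the pools was not tested. Replicates 1 and 2 carry the same lane number, 8, in their run names, and the part of the lane was not tested either. In 5 genes the highest value was not that of replicate 1, but in no gene was replicate 1 below another lateral pool beyond counting error. Replicate 3 was highest in MDP0000299090, MDP0000508081 and MDP0000737001, and replicate 2 in MDP0000265213 and MDP0000264592.

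The lateral pools stood in the same order on the main axis of difference among the libraries, which also set the 2 types of seed apart. Gene by gene the order was less common, at 22.5% of the other gene models with every lateral value at or above 1 RPKM. A link between this axis and the 25 genes was not tested. When the 25 were left out, the first principal component of the other 37205 tested gene models, on the log2(RPKM + 0.5) scale, carried 50.6% of the variance. Lateral replicates 1 to 3 lay on it at 64.2, 28.4 and 37.1 and central replicates 1 to 3 at -55.4, -36.0 and -38.4. The lateral pool with the highest summed level of the 25 genes, replicate 1, was thus the one furthest from the central pools on this component. In the central pools, replicate 1 lay furthest out on the other side and had the lowest summed level, and replicate 2, with the highest, lay nearest to the lateral pools. The central sums rest on only 21, 55 and 34 reads in replicates 1 to 3. With 3 libraries in each of 2 separate clusters no correlation was computed.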

How the data were processed

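The authors trimmed the single-end reads of 6 libraries, aligned them to version v1.0 of the apple genome and deposited RPKM values per gene model from the CLC Genomics Workbench, not scaled between libraries. The reads recovered on gene models came to 99.4% of the study's mapped reads in each library, more than it reports as uniquely mapped. Multiply mapping reads were thus counted, and near-identical copies of a gene may share reads. The program's version and its rule for dividing such reads among copies are not given in the sources used here. Members, lists and tests were chosen with earlier results of these data known. Lengths from 60 to 30000 bases were searched for the shortest at which the product of RPKM, length and the study's mapped reads was whole in every library, within 0.001, and that product was taken as the reads. This worked for all 55261 gene models above 0, and 97.4% of the lengths were multiples of 3, so for 1 of the 25 genes, MDP0000508081, the multiple of 276 bases was taken. Where all reads of a gene share a divisor, length and reads are too small by it.

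Ratios compare reads per mapped read summed over the libraries of a type of seed, with exact conditional (Clopper-Pearson) intervals. For genes without central reads, 3 reads over the 3 central libraries were set as the floor. Their ratios to this floor carry no interval. The test across all genes was limma (version 3.58.1, R version 4.3.3) with a trend and no block, applied to log2(RPKM + 0.5) where the mean of central or of lateral libraries reached 0.5 RPKM. Nothing in the labels or methods says that the replicates are from separate trees, so the spread is that between pools. The steps were tested on simulated data.

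Genes named by rule were the 8 highest in lateral mean, those without central reads, the longest, the shortest and the one with the most reads, the 3 most and 3 least even of those with a lateral mean of at least 5 RPKM, and those nearest to each limit on either side. The other members are named to account for all 25. Alternatives were other limits, pseudocounts (0.1 and 1), filters and scalings, no trend, the lane, a replicate block, voom on recovered reads, and each library left out. Python 3.11.15, numpy 2.4.6, pandas 2.3.3, scipy 1.17.1 and matplotlib 3.10.9 were used.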

Additional observations from a re-analysis of the deposited data

How the results depend on the processing

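The number of gene models in the set depended on its limits. It was 11 with a central limit of 0.1 RPKM, 102 with 0.5 RPKM and 4 with no central read allowed, and 70, 11 and 4 with lateral limits of 0.5, 2 and 5 RPKM. With each library left out in turn it ran from 29 to 53, highest without central replicate 2 and next, at 42, without central replicate 3. Leaving out a library removes a condition of the rule, so the number could only stay or rise. Values scaled to a common total gave 26, all 25 genes included, and left the summed levels within the spread of the pools, but the number of genes highest in lateral replicate 2 became 1. The median log2 difference of the 25 genes was 3.96 with a pseudocount of 0.1, 1.61 with 1, 2.56 with the lane as a covariate, and from 2.25 to 2.39 with each library left out.

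Of the gene models tested by limma, 1262 were called higher and 171 lower. With the lane as a covariate it called 392 and 39, and 15 of the 25 genes; without the filter it called 240 and 28, and 18 of the 25 genes. With the replicate block it called 1035 and 96, and all 25 genes. The labels do not say whether same-numbered libraries belong together. Their deviations from the group means correlated at 0.012, -0.12 and -0.13 for replicates 1 to 3, which cannot decide it with 3 libraries in each group. With each library left out the calls ran from 875 to 1151 higher and from 93 to 141 lower, of 37001 to 37558 gene models tested. Among them were 101 lower without central replicate 1, 112 without central replicate 2 and 93 without lateral replicate 3. The causes of these changes were not tested. All 25 genes were called each time, a count that their choice on the same contrast fixes in large part, as in the other fits. voom on recovered reads called 1283 higher and 212 lower of 37230, and 24 of the 25 genes. Depth limits the weakest genes, 4 of which had fewer than 10 reads in some lateral library.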
